A study of Mus musculus with 4 samples.

Results

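The immediate-early genes examined here were 41 genes of the AP-1 family and of the first wave of transcripts that follows a stimulus, among the 32285 genes in the deposited count matrices. The list was set by gene name, with earlier results of these data known. There were 10 genes of AP-1 and its small Maf partners (Fos, Fosb, Fosl1, Fosl2, Jun, Junb, Jund, Atf3, Maff, Mafk) and 10 zinc finger or nuclear receptor factors (Egr1, Egr2, Egr3, Klf2, Klf4, Klf6, Klf10, Nr4a1, Nr4a2, Nr4a3). A further 6 were other small nuclear response genes (Ier2, Ier3, Ier5, Ier5l, Csrnp1, Sertad1), 6 were growth arrest and stress genes (Btg1, Btg2, Gadd45a, Gadd45b, Gadd45g, Ppp1r15a) and 3 were mRNA decay factors (Zfp36, Zfp36l1, Zfp36l2). The remaining 6 were Myc, Bhlhe40, Srf, Per1, Arc and Sik1. All 41 were detected.

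Immediate-early genes are transcribed within minutes of a signal, without new protein synthesis, because the factors that switch them on are already present in the cell. MAP kinases phosphorylate Elk factors bound with Srf and also lead to phosphorylation of Creb1, and the first transcripts include Fos and Jun, whose proteins pair to form AP-1 and bind DNA at the genes of the next wave. Many of these transcripts are short-lived, and in muscle stem cells (MuSCs) they are known both from the first steps out of quiescence and from the response to enzymatic isolation of the cells.

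Droplet-based 3′ single cell RNA-sequencing was performed on tdTomato+ cells from hindlimb muscle of C57BL/6J mice aged 3-4 months, 14 days after tamoxifen. Both genotypes carried Pax7CreERT2/+, which drives tamoxifen-dependent recombination in MuSCs, and the Rosa26-tdTomato reporter. The 2 α-cdKO samples were also Ctnna1fl/fl;Ctnna3fl/fl, so that both α-catenin genes were floxed, whereas the 2 control samples carried no floxed allele. Each sample was pooled from 2 littermate mice, dissociated with collagenase II and dispase II at 37 °C and sorted without surface markers, so a sample is a pool and every n below counts pools.

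Total UMIs (unique molecular identifiers, 1 per captured transcript) were 46099310 to 74921651 per sample, and 28790 of 31254 barcodes passed the filters (1000 or more UMIs, 400 or more genes, mitochondrial share below 15%). Kept cells had a median of 6452.5 to 8075 UMIs per sample, and 41 to 64 cells per sample carried a barcode also kept in another sample. Cells were clustered with the 41 genes left out. The resulting groups included 12445 activated-like cells (high in Myod1) and 4501 quiescent-like cells (high in Pax7, Calcr and Hes1). Of the 10 markers listed for each of these, only 7 and 5 were raised at least 1.5-fold over the other myogenic cells. There were also 790 differentiated-like, 506 cycling-like, 1353 mature-muscle-like, 178 endothelial-like and 171 immune-like cells. A cluster of 8757 myogenic cells led by the chaperone genes Dnaja4, Dnaja1 and Hsph1 had markers of both main states and was left unnamed, as were 89 cells led by Mgp and Dcn. Mature-muscle-like cells made up 15.5% of control 2 and 1.41 to 2.88% of the other samples, and they were kept out of the myogenic groups compared here. Floxed Ctnna1 was at 91.1, 74.9, 79.3 and 75.4 CPM (UMIs of a gene relative to all UMIs, per 1000000) in controls 1 and 2 and α-cdKO 1 and 2. A 3′ tag can lie outside the deleted part, so this checks no label, and Ctnna3 had only 1 to 7 UMIs per sample over all myogenic cells.

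Sample α-cdKO 1 stood apart. In all myogenic cells Xist was at 1025 CPM in α-cdKO 1 and at 0.193 to 0.282 CPM in the other samples, while the Y-linked Ddx3y was at 104 against 265 to 294 CPM, so α-cdKO 1 held cells with and without Xist and the other samples held Y-linked transcripts with almost no Xist. The immune-like cluster was also mixed. Its summed immune markers were at 239834 and 362434 CPM in the controls but at 3273 CPM in α-cdKO 1, where Des was at 460 and Myod1 at 404 CPM. Peaks in non-myogenic cells and genotype changes are therefore given with and without that cluster or sample.

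Promoter windows of 300 bases (250 before and 50 from the annotated start) were available for 31 of the 41 genes from RefSeq on GRCm38.p6, the mouse build of the count matrices. These were searched on both strands for the cyclic AMP response element (CRE, TGACGTCA, its own reverse complement), the AP-1 site (TGACTCA, or TGAGTCA on the other strand) and the CArG box bound by Srf. Neither the CRE nor the AP-1 site contains the other. The CRE was in 3 of the 31 genes (9.68%), Btg2, Maff and Ppp1r15a, against 2.03% of the 27025 genes in the table. The CArG box was in Egr2, Srf and Zfp36 (9.68% against 1.81%), and the AP-1 site only in Csrnp1 (3.23% against 5.95%). The windows of the 3 CRE genes and of Zfp36 are shown. These genes, with Fos, were higher in quiescent-like than in activated-like cells in every sample. Egr2 was too, but its windows are not shown. Capitals mark the CRE in the first 3 and the CArG box in Zfp36. Fos, on the plus strand at chr12:85473640-85473939, is shown for comparison and held none of the 3 patterns in full within its 300 bases. Sequence further upstream was not searched, so this does not show that Fos lacks such sites. Btg2 lies on the minus strand at chr1:134079106-134079405, Maff on the plus strand at chr15:79347270-79347569 (the second of 3 annotated starts), Ppp1r15a on the minus strand at chr7:45526219-45526518 and Zfp36 on the minus strand at chr7:28379179-28379478. All are written 5′ to 3′ in the direction of transcription.
Btg2: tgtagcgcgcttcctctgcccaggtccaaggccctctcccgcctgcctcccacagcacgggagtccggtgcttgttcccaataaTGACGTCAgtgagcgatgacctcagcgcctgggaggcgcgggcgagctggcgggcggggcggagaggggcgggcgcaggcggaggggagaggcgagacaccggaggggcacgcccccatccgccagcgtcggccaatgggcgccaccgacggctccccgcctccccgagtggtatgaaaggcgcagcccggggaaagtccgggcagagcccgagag
Maff: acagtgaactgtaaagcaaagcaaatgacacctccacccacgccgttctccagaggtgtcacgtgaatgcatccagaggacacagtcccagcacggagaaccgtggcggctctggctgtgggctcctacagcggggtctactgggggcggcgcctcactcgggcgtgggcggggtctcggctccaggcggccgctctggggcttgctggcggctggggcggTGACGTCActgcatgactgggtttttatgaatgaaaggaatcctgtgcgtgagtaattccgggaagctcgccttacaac
Ppp1r15a: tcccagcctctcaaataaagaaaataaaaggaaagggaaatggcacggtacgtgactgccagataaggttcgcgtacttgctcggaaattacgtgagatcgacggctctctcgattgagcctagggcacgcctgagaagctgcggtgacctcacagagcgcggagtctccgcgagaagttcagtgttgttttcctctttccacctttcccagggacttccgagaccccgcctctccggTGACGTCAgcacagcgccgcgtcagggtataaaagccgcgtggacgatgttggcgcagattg
Zfp36: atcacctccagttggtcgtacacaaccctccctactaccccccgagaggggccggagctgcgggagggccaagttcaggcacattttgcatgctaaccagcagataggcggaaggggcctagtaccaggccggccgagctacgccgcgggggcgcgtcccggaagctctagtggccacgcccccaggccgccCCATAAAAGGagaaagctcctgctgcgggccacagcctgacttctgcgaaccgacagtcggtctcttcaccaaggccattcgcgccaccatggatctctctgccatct
Fos: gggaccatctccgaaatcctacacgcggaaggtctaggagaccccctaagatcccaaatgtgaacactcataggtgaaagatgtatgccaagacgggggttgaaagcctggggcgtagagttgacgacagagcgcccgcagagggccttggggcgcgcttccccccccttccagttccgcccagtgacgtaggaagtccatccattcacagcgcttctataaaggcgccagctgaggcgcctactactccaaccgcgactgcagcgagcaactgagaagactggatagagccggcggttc
The CRE began 166 bases before the start in Btg2, 29 in Maff and 12 in Ppp1r15a, and the CArG box 58 bases before it in Zfp36. These matches describe the sequence only.

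The members divided between the cell groups. Levels below are CPM, with the UMIs of a gene and of all genes summed over the cells of a group in a sample, and a gene was said to peak where 1 of 3 groups (quiescent-like, activated-like, or non-myogenic cells, meaning endothelial-like, immune-like and Dcn-led cells together) was highest in every one of the 4 samples. By this rule 10 of the 41 peaked in quiescent-like cells, against 8.47% of the 13297 genes with at least 50 UMIs in these groups. These were Fos, Fosb, Jun, Junb, Maff, Egr1, Nr4a1, Btg2, Ppp1r15a and Zfp36l2. Another 5 peaked in activated-like cells (Fosl1, Ier5, Btg1, Myc, Sik1; background 8.23%) and 6 in non-myogenic cells (Klf2, Klf6, Ier2, Ier5l, Gadd45g, Bhlhe40; background 25.6%). The other 20 had no single peak (background 57.7%). Between the myogenic states alone, 23 of 41 were higher in quiescent-like than activated-like cells in every sample, beside 50.7% of all genes, and 9 were lower in every sample, beside 26.3%. The median log2 ratio of quiescent-like over activated-like cells, with 1 CPM added, was 0.91 over the 41 genes and 0.30 over the 13297. Groups were made by clustering the same cells, so these contrasts are descriptions and carry no test.

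**Figure D1:**
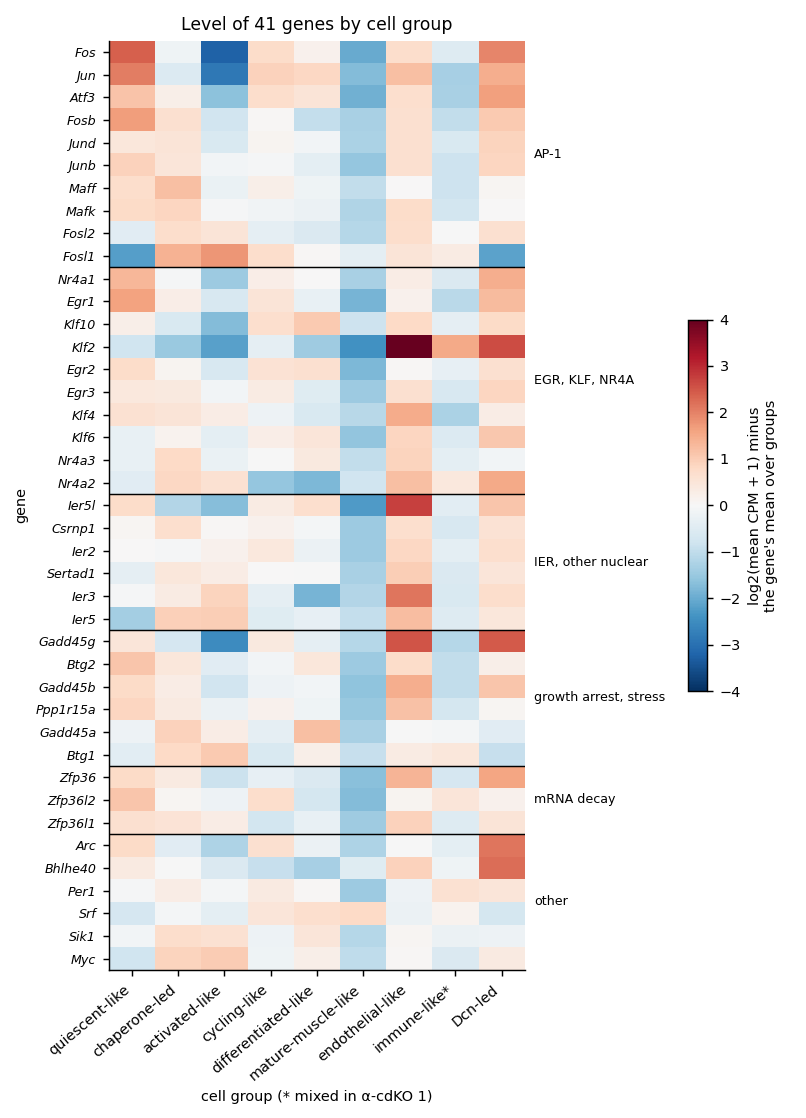
Each row is 1 of the 41 genes and each column a cell group, and colour gives the log2 of the mean CPM over 4 samples (plus 1) minus the gene's mean over groups. Fos and Jun are darkest red in quiescent-like cells, Fosl1 is lowest there, and Klf2 is highest in endothelial-like cells.

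Leaving out the mixed immune-like cluster moved 10 genes between these classes. Quiescent-like peaks then numbered 7 (background 8.35%), activated-like peaks 4 (8.29%) and non-myogenic peaks 12 (26.8%), with 18 genes in no class. The genes that moved were Csrnp1, Ier3, Ier5, Junb, Klf4, Nr4a1, Ppp1r15a, Sertad1, Zfp36 and Zfp36l1. Fos, Fosb, Jun, Maff, Egr1, Btg2 and Zfp36l2 stayed in the quiescent-like class.

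Among AP-1 genes, Fos, the partner that needs Jun to bind DNA, had the largest ratio. Its level in quiescent-like cells was 3705 and 4175 CPM in controls 1 and 2 and 2246 and 3563 CPM in α-cdKO 1 and 2, and in activated-like cells it was 69.4, 73.3, 40.3 and 94.6 CPM. The lowest quiescent-like sample was thus far above the highest activated-like sample, and the log2 ratio was 5.63 ± 0.28 (SD, n = 4), or 49.5-fold. Jun, which can pair with itself or with Fos proteins, was at 3742, 3824, 1887 and 2885 CPM in quiescent-like and at 131, 83.2, 72.8 and 122 CPM in activated-like cells, a log2 ratio of 4.89 ± 0.43 (SD, n = 4). For both genes α-cdKO 1 was the lowest sample in either state.

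Fosl1 (Fra-1), a Fos family member without the transactivation domain of Fos, went the other way. It was at 15.5, 10.4, 23.1 and 23.6 CPM in quiescent-like cells and at 210, 358, 300 and 311 CPM in activated-like cells, 15.9-fold higher (log2 ratio -3.99 ± 0.66, SD, n = 4). Fosl2 (Fra-2) had the same sign with a log2 ratio of -0.99 ± 0.30 (SD, n = 4). Of the remaining AP-1 genes, Atf3, a stress-induced partner of Jun, had a log2 ratio of 2.82 and Fosb, a close relative of Fos, of 2.45. Junb, Jund and the small Maf genes Maff and Mafk, which lack a transactivation domain, had ratios of 1.01, 1.15, 0.99 and 0.78. In this family 8 of 10 mean ratios were thus above 0, and the 2 Fra genes were below.

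**Figure D2:**
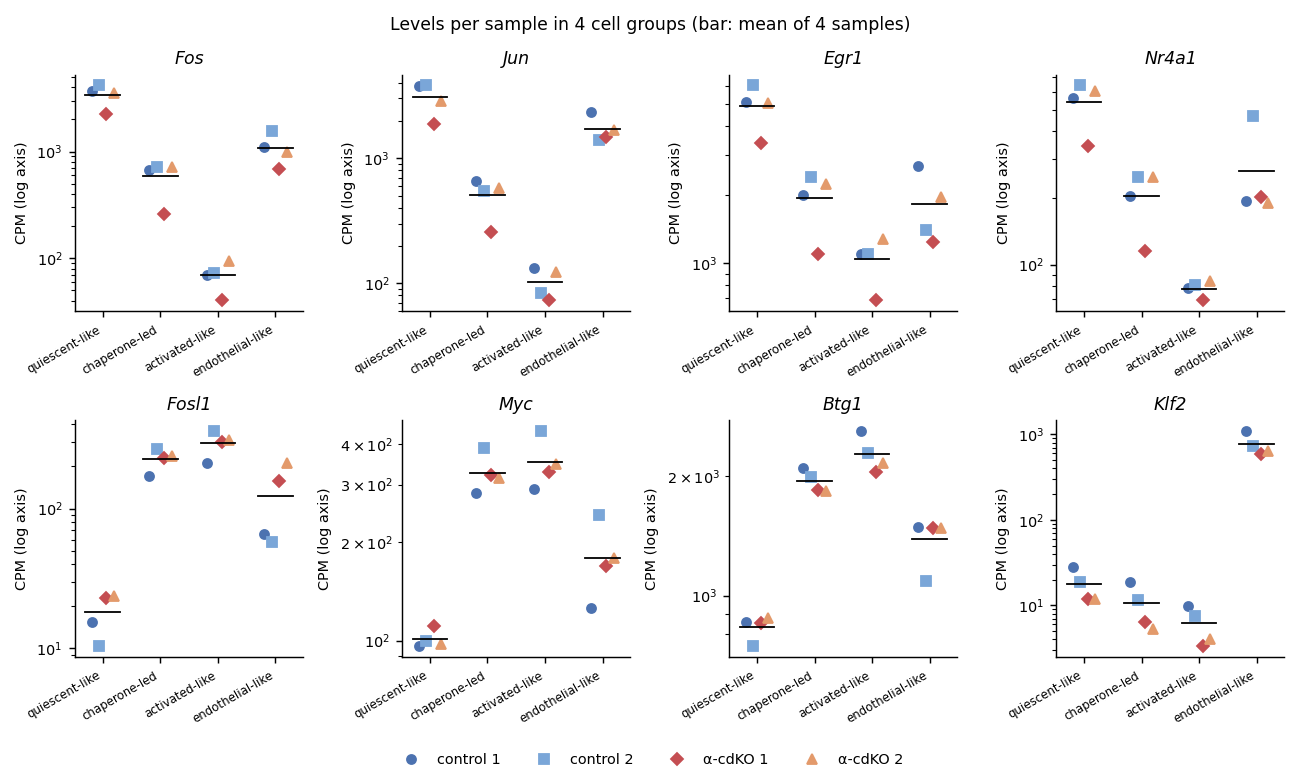
CPM on a log axis in each of the 4 samples (points) with their mean (bar) in quiescent-like, chaperone-led, activated-like and endothelial-like cells, for 8 genes. Fos, Jun, Egr1 and Nr4a1 step down from quiescent-like through chaperone-led to activated-like cells, Fosl1, Myc and Btg1 step up, and Klf2 is highest in endothelial-like cells.

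Egr1, a zinc finger factor induced through Srf, was at 5111, 6067, 3379 and 5072 CPM in quiescent-like cells and kept 1103, 1095, 686 and 1280 CPM in activated-like cells, 4.73-fold lower. Nr4a1 (Nur77), an orphan nuclear receptor, was at 565, 644, 343 and 606 CPM against 78.0, 80.6, 68.8 and 84.0 CPM, a log2 ratio of 2.74 ± 0.30 (SD, n = 4). Its relatives did not follow. Nr4a2 (Nurr1) was lower in quiescent-like cells, at 65.9, 27.5, 52.2 and 61.7 against 89.1, 106, 110 and 125 CPM, and Nr4a3 had a log2 ratio of 0.00 to 2 decimals, with 2 samples on either side of it. Egr2 and Egr3 had ratios of 1.37 and 0.54, and Klf10, a factor induced by TGFβ, of 2.00. Klf4 and Klf6 differed little between the states (0.27 and 0.08).

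Among the small nuclear genes, Ier5, a regulator of heat shock factor activity, was lower in quiescent-like cells, at 56.2, 53.2, 79.9 and 69.2 against 317, 357, 289 and 354 CPM. Its paralog Ier5l had the opposite order, at 26.6, 30.1, 25.8 and 26.3 against 3.39, 4.61, 4.40 and 4.49 CPM. The log2 ratios of these paralogs were -2.34 and 2.44. Ier3, a regulator of cell survival, and Sertad1, a CDK4-binding protein, were at -0.94 and -0.64, and Ier2 and Csrnp1 were near equal (-0.15 and 0.04).

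Of the growth arrest genes, the antiproliferative paralogs Btg1 and Btg2 also separated. Btg1 was at 857, 746, 854 and 880 CPM in quiescent-like and at 2592, 2284, 2045 and 2159 CPM in activated-like cells (log2 ratio -1.44 ± 0.19, SD, n = 4). Btg2 was at 1276, 1000, 710 and 835 against 444, 297, 242 and 301 CPM (1.57 ± 0.12). Gadd45g, a stress sensor that binds MAP3K4, was at 106, 125, 126 and 146 against 14.2, 14.5, 10.8 and 19.7 CPM, a ratio of 3.02. Gadd45b was at 1.51 and Gadd45a at -0.43, so the 3 Gadd45 genes spanned both signs. Ppp1r15a (GADD34), which directs dephosphorylation of eIF2α, had a ratio of 1.06.

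The mRNA decay factors, which bind AU-rich elements in short-lived transcripts, were all higher in quiescent-like cells. Zfp36 (tristetraprolin) was at 622, 574, 349 and 643 against 168, 173, 151 and 213 CPM (log2 ratio 1.60). Zfp36l2 had a ratio of 1.31 and Zfp36l1 of 0.35. Zfp36l1 was at 1037, 999, 660 and 878 against 852, 734, 518 and 709 CPM, so it was higher within every sample although the ranges over samples overlapped.

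Myc, which drives growth and ribosome production, was at 96.1, 99.4, 111 and 97.5 CPM in quiescent-like and at 291, 437, 328 and 346 CPM in activated-like cells. The kinase Sik1 also had a negative ratio (-0.72). Arc, best known from synapses, was low in both but higher in quiescent-like cells, at 11.4, 6.91, 5.86 and 9.36 against 1.43, 1.09, 1.04 and 1.79 CPM. The circadian gene Per1 was near equal (-0.01), Srf was at -0.26 and the repressor Bhlhe40 at 0.91.

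The chaperone-led cluster lay between the states for 23 of the 41 genes in every sample, beside 38.2% of all genes, and above both for 10, beside 5.32%. Fos there was at 673, 710, 261 and 715 CPM, and Fosl1 at 170, 267, 229 and 239 CPM. The 10 genes above both states were Csrnp1, Fosl2, Gadd45a, Klf6, Maff, Nr4a3, Per1, Sertad1, Sik1 and Srf. Nr4a3 was at 164, 158, 77.3 and 156 CPM in this cluster, against 77.0, 72.4, 42.2 and 65.9 CPM in quiescent-like cells. The heat shock gene Hspa1a moved with the Fos group and was at 10080 to 19717 CPM in quiescent-like, 3149 to 7698 in chaperone-led and 61.8 to 145 in activated-like cells. Dnajb1 was at 2178 to 4470, 1175 to 3549 and 77.0 to 186 CPM in the same order. The part of a heat shock or isolation response in the levels of the 41 genes was not tested.

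In non-myogenic cells Klf2, a shear-responsive factor of endothelium, stood out at 719, 430, 135 and 322 CPM, 22.8-fold above the next group. Within the endothelial-like cells it was at 1090, 739, 588 and 639 CPM, and in quiescent-like cells at 27.9, 19.0, 11.7 and 11.8 CPM. Gadd45g (279, 611, 175 and 366 CPM) and Ier5l (75.9, 82.7, 34.8 and 59.96 CPM) were 2.85-fold and 2.33-fold above the next group. Without the immune-like cluster Klf2, Gadd45g and Ier5l were 33.4-fold, 4.12-fold and 3.21-fold above quiescent-like cells. The quiescent-like cells held few endothelial transcripts, but more than the other main myogenic groups. Their summed endothelial markers were at 15.9 to 32.6 CPM, with 2 of 8 (Cldn5 and Emcn) at 0 UMIs, and their summed immune markers at 1.17 to 5.18 CPM. The endothelial sum was 3.04 to 4.18 CPM in activated-like and 3.64 to 5.33 CPM in chaperone-led cells. The part of such RNA in the quiescent-like levels of Klf2, Gadd45g and Ier5l was not tested. Fos and Jun were not low in endothelial-like cells, at 1094, 1553, 693 and 984 CPM and at 2340, 1405, 1469 and 1664 CPM.

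Shares of cells with a transcript were compared after each cell was thinned to 2000 UMIs. Fos had at least 1 UMI in 68.1% of 4367 quiescent-like cells (95% exact binomial interval 66.7 to 69.5%, counting error only) and in 9.57% of activated-like cells. Chaperone-led cells were at 27.5%, endothelial-like at 48.2% and mature-muscle-like at 8.15%. Free RNA reaches every droplet, so the activated-like share of Fos, close to that in mature-muscle-like cells, is not read as expression. Controls 1 and 2 had quiescent-like shares of 73.2 and 73.1%, compared with 59.2 and 70.7% for α-cdKO 1 and 2. Jun was in 80.0, 76.0, 66.1 and 76.1% of quiescent-like cells. In activated-like cells Jun was in 14.2% and Nr4a1 in 12.1%, near the 16.8 and 11.7% in mature-muscle-like cells. Gadd45g (2.53 against 8.15%) and Klf10 (1.57 against 3.22%) were below mature-muscle-like cells. These activated-like shares are likewise not read as expression, and the size of the log2 ratios of these genes and of Fos is uncertain. Egr1 was in 80.4 to 87.7% of quiescent-like and still in 50.5 to 68.5% of activated-like cells. Fosl1 was in 36.7% of activated-like cells, and its 2.70% in quiescent-like cells was below the 4.61% in mature-muscle-like cells, so the quiescent-like share is not read as expression. Klf2 was in 60.1% of endothelial-like and 2.45% of quiescent-like cells, and its 1.14% in activated-like cells was close to the 1.07% in mature-muscle-like cells and is read as background.

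Across single quiescent-like cells some of the genes high in that state varied together. Pearson's r was taken in each sample over cells thinned to 4000 UMIs (3498 cells) and averaged, and is given as a description, since cells of a sample share their library and depth. Fos and Egr1 had r = 0.62, at 0.60, 0.64, 0.63 and 0.59 in the 4 samples. Junb and Egr1 were at 0.59, Jun and Egr1 at 0.56, Fos and Jun at 0.52, and Junb and Zfp36 at 0.50. With Fos, Nr4a1 was at 0.48, Btg2 at 0.42, Atf3 at 0.40 and Ppp1r15a at 0.37. Of the 18 other members with a log2 ratio of at least 1, 8 had r of at least 0.3 with Fos and 7 had r under 0.2. The latter were Gadd45b (0.18), Zfp36l2 (0.17), Gadd45g (0.16), Ier5l (0.12), Klf2 (0.10), Arc (0.03) and Klf10 (0.02). Fosb, the closest relative of Fos, was at 0.23. With cells thinned as for the shares above, Gadd45g, Ier5l, Klf2, Arc and Klf10 were found in only 0.73 to 11.7% of quiescent-like cells. Gadd45b and Zfp36l2 were found in 35.7 and 44.9%, and the 8 genes of high r in 38.3 to 85.4%. The part of low detection in the low r values was not tested, and no r over all gene pairs is given here. Fosl1 and Myc, high in activated-like cells, were at -0.05 and -0.02 with Fos.

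**Figure D3:**
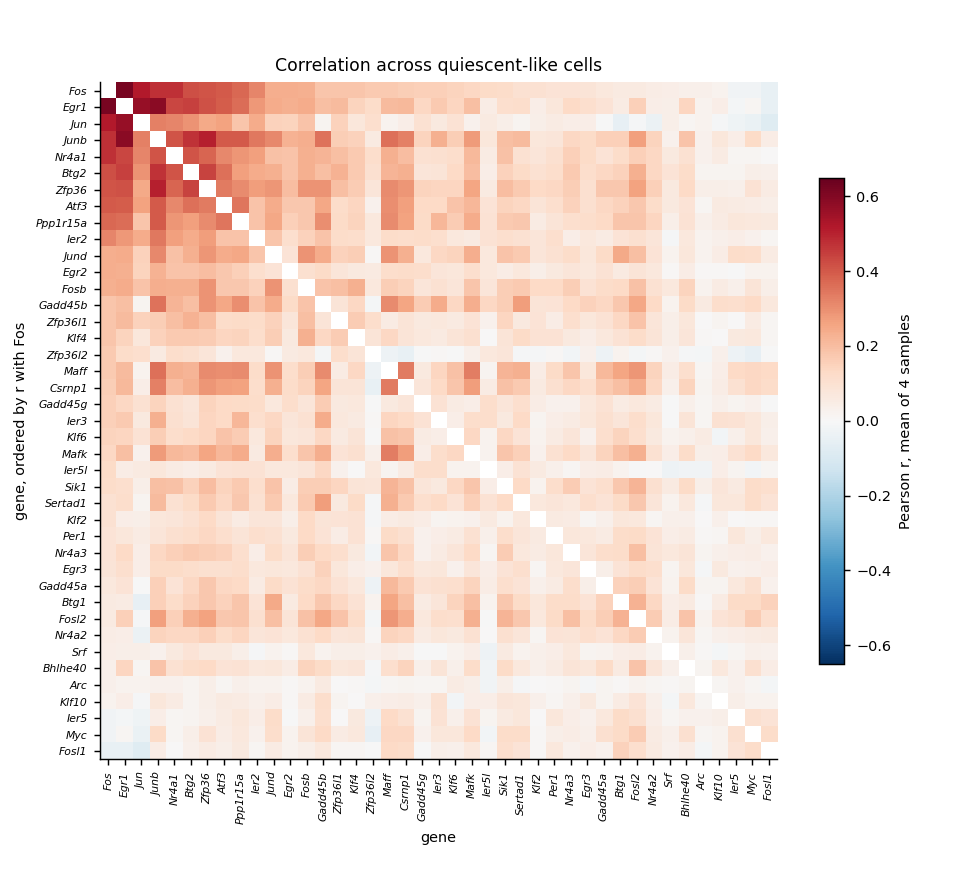
Pearson r between all pairs of the 41 genes across quiescent-like cells thinned to 4000 UMIs, the mean of 4 samples, with genes ordered by r with Fos. A block from Fos to Ppp1r15a is red, a paler patch joins Maff, Csrnp1 and Mafk with Junb, and the rows of Arc and Klf10 are near 0.

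The kinases, upstream factors, partners and targets around these genes (52 listed genes) divided between the cell groups at shares near those of all genes. In quiescent-like cells 2 of 52 peaked, Ccn1 among them (3.85%, background 8.47%). Another 6 peaked in activated-like cells (11.5%, background 8.23%) and 12 in non-myogenic cells (23.1%, background 25.6%). No single peak was found for 31 (59.6%, background 57.7%), and Mmp3 had too few UMIs. Without the immune-like cluster the numbers were 2, 8, 11 and 29, with 2 genes below the UMI minimum. Backgrounds for the first 3 were then 8.35%, 8.29% and 26.8%. Ccn1 (Cyr61), a matricellular target, was at 596, 1190, 542 and 1127 CPM in quiescent-like and 154, 206, 132 and 124 CPM in activated-like cells. Lower in quiescent-like cells were the AP-1 targets Plaur, the urokinase receptor (8.79 to 14.3 against 82.0 to 113 CPM), and Lif (log2 ratios -2.98 for both). Of the other lists, ratios ran from 1.07 (the phosphatase Dusp4) to -1.92 (the kinase Rps6ka3) and from 1.02 (Mrtfb, a cofactor of Srf) to -1.59 (Elk4). Nfe2l2 (Nrf2), a partner of small Maf proteins, was lowest of the partners at -1.87.

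The comparison of α-cdKO with control asked whether loss of α-catenins was accompanied by a change in these genes within a state. UMIs were summed per sample and state and tested with the edgeR quasi-likelihood test, with Benjamini-Hochberg adjustment over all genes. The p-values measure the spread between 2 pools per genotype. In all 4 myogenic comparisons and in the test of the difference between states, 0 of the 41 had an adjusted p under 0.05. In quiescent-like cells 0.112% of 11567 genes were called, in activated-like cells 0.163% of 12242, in the chaperone-led cluster 0.184% of 12498 and in all myogenic cells 0.185% of 14603. Members with an unadjusted p under 0.05 numbered 9 in quiescent-like cells (background 8.46%), 5 in activated-like (6.84%), 8 in chaperone-led (8.74%) and 4 in all myogenic cells (7.05%). DESeq2 called Klf2 in all myogenic, activated-like and chaperone-led cells (adjusted p = 6.6e-04, 0.0259 and 8e-04) and no member in quiescent-like cells, with 0.849%, 0.498%, 0.592% and 0.207% of all genes called in these 4.

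Most fold changes were nevertheless below 0. The log2 fold change of α-cdKO over control was negative for 28 of 41 in quiescent-like cells (50.8% of all genes), 27 in activated-like (50.9%), 34 in chaperone-led (50.9%) and 32 in all myogenic cells (51.5%). Medians were -0.20, -0.11, -0.27 and -0.19. Both α-cdKO samples lay below both controls for 11 members in quiescent-like cells (background 20.4%), 10 in activated-like (18.7%), 13 in chaperone-led (19.8%) and 12 in all myogenic cells (19.7%). They lay above both for 5 (20.5%), 4 (17.9%), 1 (20%) and 2 (19%). Of the fits that left out 1 sample, those without α-cdKO 1 had the medians nearest 0. In quiescent-like cells this sample also had the lowest summed quiescent markers (1618 against 2104 to 2402 CPM) and the lowest median UMIs (4942 against 6001 to 6955.5), whose part in the lower levels was not tested. Without α-cdKO 1 the medians were -0.02, 0.03, -0.04 and 0.01, and without α-cdKO 2 they were -0.38, -0.22, -0.50 and -0.42. Leaving out a control also moved them, to -0.07, -0.10, -0.37 and -0.23 without control 1. Without control 2 they were -0.20, -0.10, -0.10 and -0.12.

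In quiescent-like cells the largest decrease was that of Klf2. The controls had TMM-scaled CPM of 27.1 and 19.1, above the 11.8 and 12.2 of α-cdKO (log2 fold change -0.94 ± 0.20 SE, adjusted p = 0.217, edgeR). Klf2 was also lower in both α-cdKO samples in activated-like cells (9.71 and 7.45 against 3.40 and 4.09, edgeR adjusted p = 0.126). Its share of those cells is read as background. The same order held in chaperone-led cells (18.1 and 12.0 against 6.34 and 5.38, edgeR adjusted p = 0.105). Summed endothelial markers in quiescent-like cells were at 32.6 and 16.2 CPM in the controls and 25.01 and 15.9 CPM in α-cdKO, which overlapped. These sums do not measure Klf2 RNA, and Klf2 within endothelial-like cells was itself lower in both α-cdKO samples, as given above. The part of free endothelial RNA in Klf2 was not tested. Jun was at 3641 and 3853 in controls and 1891 and 2972 in α-cdKO, again without overlap (-0.62 ± 0.18 SE, adjusted p = 0.386). Zfp36l2 was at 518 and 533 against 293 and 438 (-0.52, adjusted p = 0.474).

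Fosl1 had the largest increase in quiescent-like cells, where its share of cells was at background, at 15.1 and 10.4 in controls and 23.1 and 24.3 in α-cdKO (0.90 ± 0.20 SE, edgeR adjusted p = 0.234). Ier5 was at 54.7 and 53.6 against 80.0 and 71.3 (0.48, adjusted p = 0.398). Both genes were higher in activated-like cells, and neither passed the test. Nr4a2 was at 64.1 and 27.7 against 52.4 and 63.6, which overlapped (0.35, adjusted p = 0.788). Fos itself was at 3605 and 4205 against 2252 and 3670 (-0.40 ± 0.20 SE, adjusted p = 0.624) and Egr1 at 4973 and 6111 against 3387 and 5225 (-0.36, adjusted p = 0.635). For both, α-cdKO 2 lay between the 2 controls and only α-cdKO 1 was below them. In activated-like cells the changes of Fos, Egr1 and Jun were -0.05, -0.13 and -0.11, and in chaperone-led cells -0.49, -0.39 and -0.52. The shares of Fos and Jun in activated-like cells were near background.

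Outside quiescent-like cells the largest decreases after Klf2 were in AP-1 genes and Srf. In the chaperone-led cluster Atf3 was at 579 and 592 TMM-scaled CPM in the controls and 241 and 429 in α-cdKO (-0.81, edgeR adjusted p = 0.413), and Fosb at 217 and 155 against 87.1 and 138 (-0.72, adjusted p = 0.478). Neither overlapped. In activated-like cells Jund was at 1154 and 593 against 389 and 637 (-0.77, adjusted p = 0.682), where control 1 alone was high, and Srf at 13.5 and 11.3 against 7.38 and 8.85 (-0.62, adjusted p = 0.539). Increases in activated-like cells were led by Egr3, at 19.4 and 18.5 against 28.0 and 23.7 (0.45, adjusted p = 0.659), Egr2 (0.36) and Sertad1 (0.32). Over all myogenic cells Atf3, Jund and Jun had changes of -0.59, -0.61 and -0.59, and Egr3, Sertad1 and Ier5l of 0.29, 0.21 and 0.21. In the chaperone-led cluster Ier5l, Egr3 and Sertad1 changed by 0.33, 0.29 and 0.14, and none of these passed the test.

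Leaving out 1 sample brought some members past the threshold, with the lone sample of that genotype assumed to vary like the pair. Calls over all genes rose as well in most of these fits. Without α-cdKO 2, where 0.629% of all genes passed in quiescent-like cells, Jun, Fos, Egr1 and Junb passed (edgeR adjusted p = 0.0017, 0.0181, 0.0295 and 0.0497), with log2 fold changes of -0.98, -0.79, -0.71 and -0.64. Fos, Jun and Atf3 then passed in the chaperone-led cluster (adjusted p = 0.0142, 0.0284 and 0.0191, 0.444% of all genes) and Gadd45a in activated-like cells (0.0405, 0.328% of all genes). Without control 2, Klf2 passed in all 4 myogenic comparisons (adjusted p = 0.00548 to 0.0243), Btg2, Bhlhe40 and Fosb in quiescent-like cells (0.0493, 0.0112 and 0.0459) and Jund and Btg2 in activated-like cells (0.00316 and 0.0334). In those fits 0.555% of all genes passed in all myogenic, 1.52% in quiescent-like, 1.85% in activated-like and 0.359% in chaperone-led cells. Without control 1, Fosl1 and Nr4a2 passed in quiescent-like cells (0.011 and 0.0107, 0.679% of all genes). Without α-cdKO 1, no member passed in any of these comparisons.

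**Figure D4:**
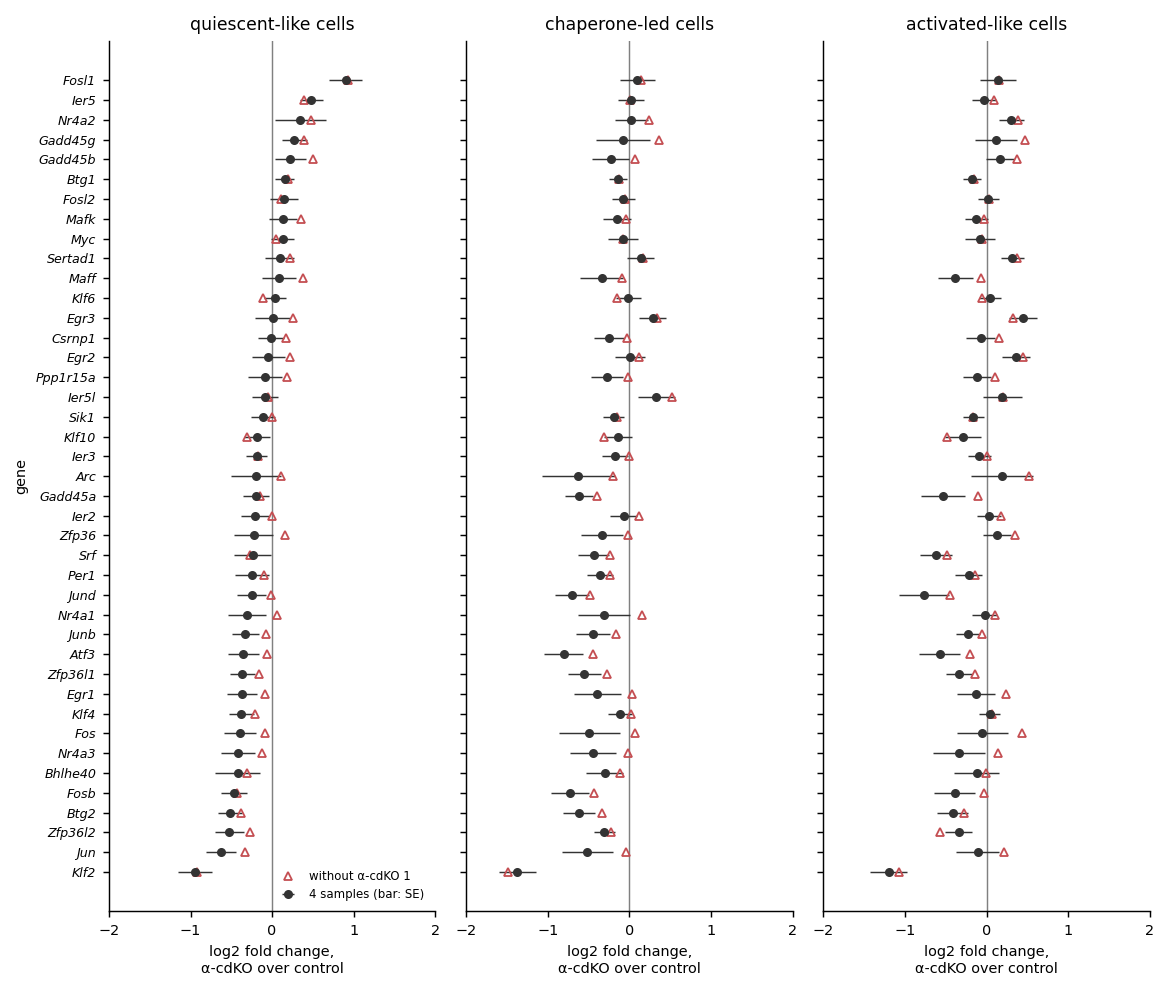
Log2 fold change of α-cdKO over control for the 41 genes in quiescent-like, chaperone-led and activated-like cells (circles, bars are SE) and the same without α-cdKO 1 (triangles). Klf2 is leftmost in each panel and Fosl1 rightmost in quiescent-like cells, and in quiescent-like cells the triangles of Fos, Jun and Egr1 lie nearer 0 than their circles.

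The change in activated-like cells minus that in quiescent-like cells had an adjusted p of at least 0.688 for every member (edgeR; 0.00764% of 13091 genes called). An unadjusted p under 0.05 was reached by 8 members (background 4.84%). Estimates ran from -0.73 for Fosl1, -0.53 for Ier5 and -0.49 for Maff to 0.42 for Egr2, 0.44 for Egr3 and 0.53 for Jun, with Fos at 0.26 and Egr1 at 0.19. Without control 1, Jun, Fos, Egr1, Klf4, Fosl1, Ier5, Nr4a2 and Gadd45a passed (adjusted p = 1.33e-20 to 0.0146, 0.84% of all genes), and without control 2 Nr4a2, Zfp36, Jund, Btg1 and Maff (1.73e-12 to 0.0378, 1.49% of all genes). Nr4a2 had opposite signs in these fits, -0.85 and 0.59, which have few residual degrees of freedom. The share of quiescent-like cells with a Fos UMI was 73.2% ± 0.0925 in control and 64.97% ± 8.11 in α-cdKO (SD, n = 2 each), a difference of -8.21 points (exact permutation test, two-sided, p = 0.3333, the smallest that 2 against 2 allows). Of the 52 pathway genes, 49 to 51 were tested in each comparison and 0 passed an adjusted p of 0.05 (edgeR). An unadjusted p under 0.05 was reached by 8 in quiescent-like (background 8.46%), 4 in activated-like (6.84%), 4 in chaperone-led (8.74%) and 3 in all myogenic cells (7.05%). DESeq2 also called 0 of them in the first, second and last of these and 1, Il6, in the chaperone-led cluster.

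Because α-cdKO 1 contained Xist transcripts, its quiescent-like cells were divided into 783 with Xist and no Y-linked UMI and 246 with a Y-linked UMI and no Xist, of 1412. Among Y-linked cells alone, Fos was at 3609 and 4380 CPM in the controls and 2366 and 3684 CPM in α-cdKO 1 and 2, and it was at 2081 CPM in the Xist cells of α-cdKO 1. Jun was at 3780, 4113, 1817 and 2993 CPM in the Y-linked cells and at 1882 CPM in the Xist cells. Egr1 was at 5323, 6497, 3912 and 5358 CPM, against 3068 CPM. In α-cdKO 1, 33 of the 41 genes were lower in Xist than in Y-linked cells of the quiescent-like state (median log2 ratio -0.33). In the chaperone-led cluster 35 of 41 were lower (-0.24). No such share was computed over all genes, so these counts are not read as particular to the 41. Median UMIs were also higher in the Xist cells, at 5406 against 4607 (quiescent-like) and 7775 against 6356.5 (chaperone-led). The Y-linked cells of α-cdKO 1 still had the lowest Fos, Jun and Egr1 of the 4 samples. Whether mice, sex or handling accounted for the low sample cannot be told apart.

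**Figure D5:**
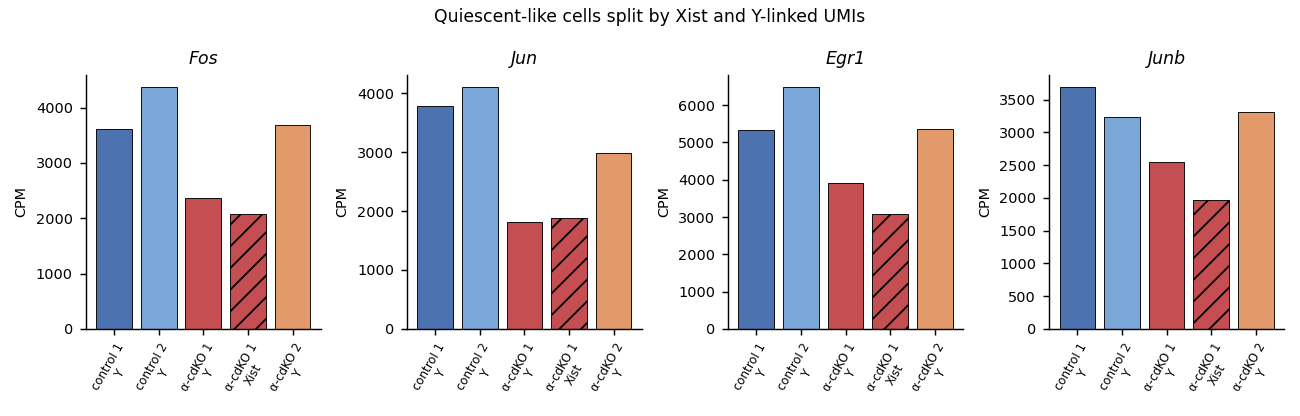
CPM of Fos, Jun, Egr1 and Junb in quiescent-like cells with a Y-linked UMI and no Xist UMI in each sample, and in the Xist cells of α-cdKO 1 (hatched). Both bars of α-cdKO 1 are below those of the other 3 samples for every gene shown.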

How the data were processed

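The deposited files held counts: whole-number UMI counts per gene and barcode, which the authors made with Cell Ranger 7.1.0 on GRCm38, and whether intronic reads were counted is not given in the sources used here. The submitters' processing notes name Seurat 4.0.3. Cells were filtered as the study did (at least 1000 UMIs, 400 genes, under 15% mitochondrial). Clustering used Seurat 5.3.0 with 2000 variable genes, the 41 members left out, 30 principal components, an own implementation of the Harmony correction and Louvain resolution 0.2. The members and lists were chosen with earlier results of these data known. Genotype was tested on summed counts with edgeR 4.0.16 (glmQLFit, TMM, filterByExpr) in R 4.3.3, and the fits were tested on simulated data. Levels and shares used scipy 1.17.1, and doublet scores used scanpy 1.11.5. Values per sample were given for the highest and lowest quiescent-like over activated-like ratio in each role, the 3 non-myogenic peaks of largest fold, the 3 largest genotype changes each way, one pathway gene per list and direction, and Fos, Jun and Egr1; other named genes were chosen after their values were seen, and values of some listed items are not reported here. Scrublet called 1, 5, 0 and 1 doublets, so it had not worked, and the 241, 229, 766 and 533 cells of highest score were removed as an alternative. Other alternatives were DESeq2 1.42.0, no filter on low counts, other clusterings, leaving out each sample, and the replicate block. Same-numbered replicates correlated at -0.225 to 0.018 in their deviations from group means, so the numbers were not taken to pair samples. Depth is given as total UMIs per sample, and the intervals cover counting error only.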

Additional observations from a re-analysis of the deposited data

Results flagged for a closer look

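A sample stood far from the other 3 in 2 of the 41 checks made on the log2 ratio of quiescent-like over activated-like cells, where chance alone picks about 1 in 20. For Fos the ratio in α-cdKO 2 was 5.22, below the other samples, whose values were 5.72, 5.81 and 5.77. Its activated-like level there was the highest of the 4 samples (94.6 CPM). For Fosl1 the ratio in control 2 was -4.98, against -3.68, -3.65 and -3.66 in the others. Control 2 had the lowest quiescent-like level (10.4 CPM) and the highest activated-like level (358 CPM) of Fosl1.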

How the results depend on the processing

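With 2 pools per genotype the counts of called genes were unstable, and the cause was not tested. In all myogenic, quiescent-like, activated-like and chaperone-led cells DESeq2 called 124, 24, 61 and 74 genes, against 27, 13, 20 and 23 by edgeR. Without the filter on low counts edgeR called 313 in quiescent-like, 142 in activated-like and 377 in chaperone-led cells, and 36 between states. In quiescent-like cells the count was 7 with the members kept in clustering, 22 at resolution 0.4 and 8 with the highest doublet scores removed. Between states it was 2 with members kept, at resolution 0.4 and with other seeds, against 1. Leaving out 1 sample gave 23 to 86 calls in all myogenic cells, 53 to 188 in quiescent-like, 22 to 236 in activated-like, 11 to 56 in chaperone-led and 13 to 206 between states.

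Same-numbered replicates share only a number. The replicate block gave 217 calls in quiescent-like and 44 in chaperone-led cells, and 19 and 25 in the other 2 comparisons. Among the 217 were 6 members (Jun, Klf2, Fosl1, Zfp36l2, Btg2 and Fos, edgeR adjusted p = 0.00051 to 0.0329). Calls over all genes had thus risen as well, and the 6 are not read as a result about the members. The crossed pairing, added after seeing the data, gave 35 calls in all myogenic, 54 in activated-like and 49 in chaperone-led cells.

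Without the filter on low counts, 7 members passed in quiescent-like and 10 in chaperone-led cells, where calls over all genes rose as well. The share of all genes called in these fits is not given, so these counts are not read as a result about the members. Signs of small changes turned. In activated-like cells Fos was 0.019 with members kept, and leaving out samples gave -0.78 to 0.43 for Fos, -0.51 to 0.25 for Jun and -0.64 to 0.24 for Egr1. The same ranges were -0.87 to 0.030 for Egr1 in all myogenic cells, -0.14 to 1.07 for Nr4a2 in quiescent-like cells, and in chaperone-led cells -1.40 to 0.067 for Fos, -1.0005 to 0.036 for Egr1 and -0.082 to 0.40 for Sertad1. For Fos between states they were -0.0039 to 0.51.

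Non-myogenic peaks numbered 10 with members kept, 10 with other seeds and 12 without immune-like cells, against 6. Leaving out samples gave 10 to 14 quiescent-like, 5 to 6 activated-like and 6 to 10 non-myogenic peaks. The log2 ratios between quiescent-like and activated-like cells of 15 genes (Fos, Jun, Egr1, Fosl1, Nr4a1, Nr4a2, Ier5l, Ier5, Gadd45g, Btg1, Zfp36, Zfp36l1, Arc, Myc and Klf2) kept their sign in the settings run, with Fosl1 at -2.82 at resolution 0.4. Those of the other members are not reported here. The r of Fos and Egr1 was 0.58 at 2000 UMIs per cell. Depth limited the shares of low genes such as Klf2 and Arc, and the non-myogenic groups held few cells per sample.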
